A study of Homo sapiens with 10 samples.

Results

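The genes described here encode 10 proteins that write, remove or read N6-methyladenosine (m6A), the methyl mark on adenosines inside mRNA. They were taken by name from the gene column of 7 deposited lists of m6A peaks: WTAP, KIAA1429 (now VIRMA), ZC3H13, RBM15, RBM15B, ALKBH5, YTHDF1, YTHDF2, YTHDF3 and YTHDC1. Of these 10 genes, 9 had a peak in at least 1 list, among 5000 gene names in all. ALKBH5 had none.

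The cells were given as V16A, a castration-resistant prostate cancer line. MeRIP-seq, the assay used, pulls down RNA fragments with an antibody against m6A and sequences them. The lists came from 1 library whose name holds EU and 40 min, taken to be newly made RNA labelled with ethynyl uridine, 2 libraries of hypoxia and 2 of normoxia, with 1 further condition list each for hypoxia and normoxia. The labels give no oxygen level, no exposure time and no oxygen condition for the EU library, and do not say whether replicates were separate cultures. All coordinates are hg38, counted from 1. Peak edges of the factor genes stood at steps of about 50 bases that recurred between lists. Equal first or last bases in different lists are therefore matches to a step, not to a base.

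m6A is placed on nascent RNA by a complex with a catalytic pair, METTL3 and METTL14, and a larger regulatory part to which WTAP, VIRMA, ZC3H13, RBM15 and RBM15B belong. ALKBH5 is a demethylase that removes the mark. YTHDF1, YTHDF2 and YTHDF3 are cytoplasmic proteins that bind methylated mRNA through a YTH domain, and YTHDC1 is their nuclear relative. The mark is known to be dense in long internal exons and around stop codons. The lists bear on whether the mRNAs of this machinery carry the mark themselves.

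The lists differed widely in length. The EU library had 5044 peaks, hypoxia replicates 1 and 2 had 2879 and 6621, and normoxia replicates 1 and 2 had 212 and 1563. The condition lists had 7669 peaks for hypoxia and 2285 for normoxia. T and NK cell marker genes moved with the libraries: of 19, the EU library had peaks in 15, the hypoxia replicates in 13 and 16, and the normoxia replicates in 6 and 0. Their summed peaks were 30 in the EU library, 30 and 42 in hypoxia, and 8 and 0 in normoxia. Those of normoxia replicate 1 were in CD2, TRAC, GZMA, GZMB, NKG7 and GNLY, while CD3D, CD3E and CD3G had none in normoxia. Of 11 prostate and epithelial markers, 7 were in the EU list, 2 and 3 in those of hypoxia and 1 and 4 in those of normoxia. Summed, these markers had 15 peaks in the EU library, 5 and 6 in hypoxia, and 2 and 13 in normoxia. The shares of all protein-coding genes in the same lists follow in the next paragraph. KRT8, KRT18, FOLH1 and CDH1 had none in any list. Macrophage markers had no peak in the 5 libraries, and of 6 fibroblast and endothelial markers PECAM1 alone had any, in hypoxia replicate 2. T and NK cell genes are not markers of a prostate line, and their peaks differed between the hypoxia and normoxia lists. Cell content, list length and oxygen condition therefore cannot be told apart here. The part of these cell markers in the results below was not tested.

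The EU library held peaks in more of the m6A factor genes than any other library. There were 8 of 10 in the EU library, 3 and 5 in hypoxia replicates 1 and 2, and 1 and 5 in normoxia replicates 1 and 2. The condition lists held 6 for hypoxia and 5 for normoxia. Among all 20037 RefSeq protein-coding genes the share with a peak was 10.6% in the EU library, 5.66% and 9.65% in the hypoxia replicates, and 0.609% and 4.03% in the normoxia replicates. It was 11.7% in the hypoxia condition list and 5.53% in the normoxia condition list. In at least 1 of the 7 lists it was 22.0%. The 10 genes were chosen with earlier results of these data known, so their shares beside those of all genes are a description and not a test. Expression and transcript length, which also set where a peak can be called, were not measured here. Among the 4327 gene names with a peak in any of the 5 libraries, 55.2% had one in the EU library, 29.1% and 49.7% in the hypoxia replicates, and 3.21% and 20.7% in the normoxia replicates. Of the 9 factor genes in this set, 4 were in at least 3 libraries, against 14.3% of all such genes, and YTHDF1 and YTHDF2 were in 4, against 4.00%.

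**Figure D1:**
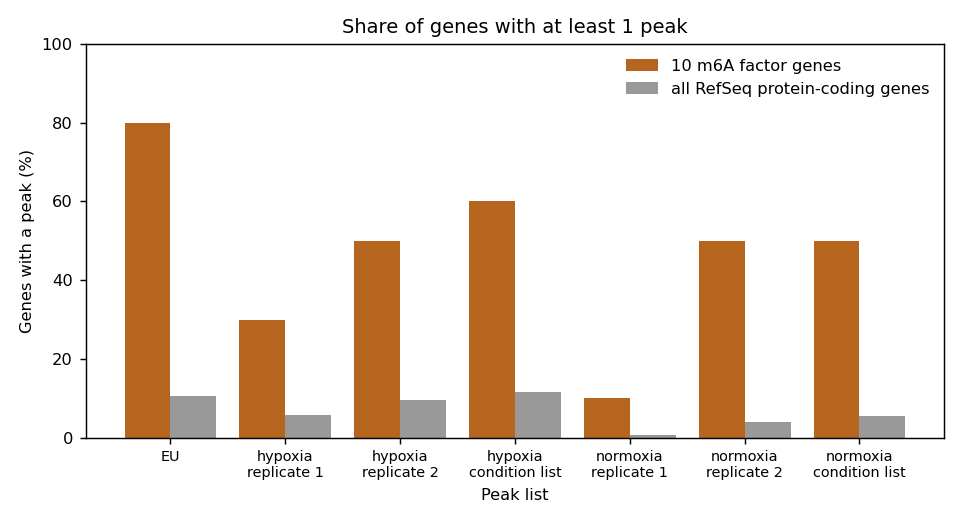
Percent of genes with at least 1 peak (vertical axis) in each of the 7 lists (horizontal axis), for the 10 m6A factor genes (brown) and all 20037 RefSeq protein-coding genes (grey). The brown bars stand above the grey ones in every list, at 8 of 10 genes in the EU library and 1 of 10 in normoxia replicate 1. The condition lists stand at 6 of 10 for hypoxia and 5 of 10 for normoxia. The 10 genes were chosen with earlier results of these data known, so the difference in height is not a test.

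No difference between hypoxia and normoxia in these genes passed a test. The mean number of factor genes with a peak was 4 ± 1.41 in hypoxia and 3 ± 2.83 in normoxia (SD, n = 2 each), a difference smaller than the spread between replicates. Without normoxia replicate 1, whose list is the shortest, the difference turned to -1. No factor gene was hypoxia-only (a peak in both hypoxia libraries and in neither normoxia library), against 15.3% of the 3226 genes with a peak in these 4 libraries. None was normoxia-only, against 0.155%. YTHDF1 was the 1 factor gene with a peak in both hypoxia libraries (21.1% of the 3226 genes), and YTHDF2 the 1 with a peak in both normoxia libraries (1.27%). The 2 conditions were compared by the number of peaks per gene with an exact two-sided permutation test, adjusted over all 3226 genes. It gave p between 0.667 and 1 for the 8 factor genes with a peak in the 4 libraries, and an adjusted p of 1 for each. With 2 libraries against 2 it cannot go below 0.333. The largest difference was in ZC3H13, at 3 ± 4.24 peaks in hypoxia and 1 ± 1.41 in normoxia (SD, n = 2 each), and it was smaller than the hypoxia SD.

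**Figure D2:**
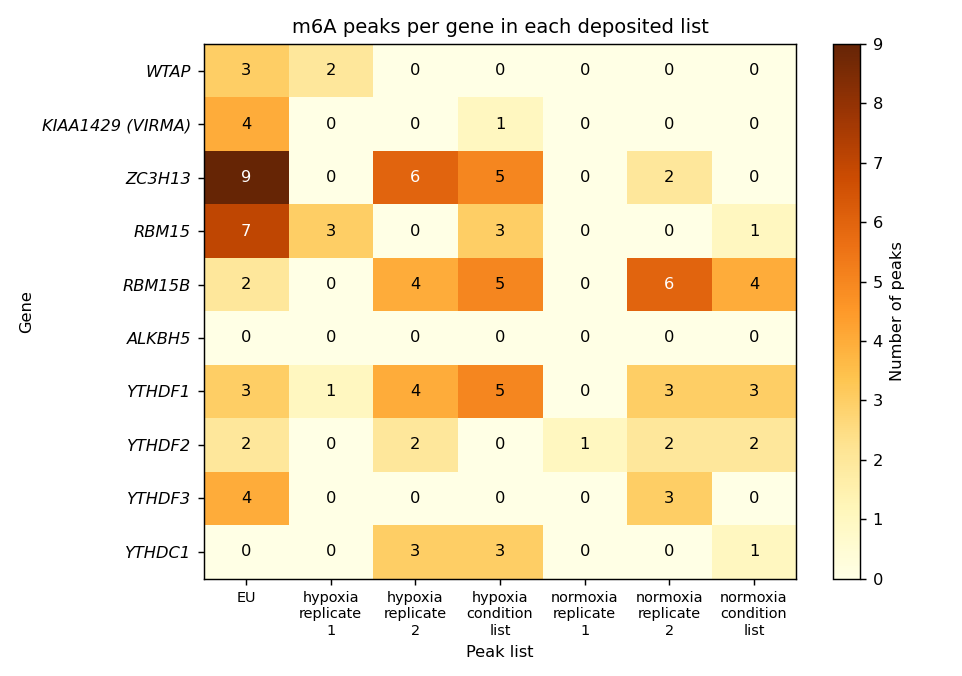
Number of peaks (colour and printed count) in each m6A factor gene (vertical axis) in each deposited list (horizontal axis). ZC3H13 reaches 9 peaks and RBM15 7 in the EU library, the normoxia replicate 1 column holds a single peak, in YTHDF2, and the ALKBH5 line is empty.

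The regulatory subunits of the writer complex were each found in 1 to 3 of the 5 libraries. WTAP, which holds the complex in nuclear speckles, had 3 peaks in the EU library, 2 in hypoxia replicate 1, and none in hypoxia replicate 2, either normoxia replicate or either condition list. A pair of its positions recurred between the EU library and hypoxia replicate 1. One lay at the RefSeq start of the gene: the EU peak at chromosome 6, 159726482 to 159726631, ended before the annotated start at 159726693, and the hypoxia peak, 159726581 to 159726731, spanned it. The other was at 159748277 to 159748427 in the EU library and 159748327 to 159748427 in hypoxia replicate 1. The third, EU peak lay at 159755123 to 159755572, with its last base 747 bases before the annotated end. SOD2, another protein-coding gene, overlaps all 5 WTAP peaks in the RefSeq table. Whether the peak calls used strand is not stated, which leaves their assignment uncertain.

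KIAA1429 (VIRMA), a large scaffold of the complex, had 4 peaks in the EU library and none in the hypoxia and normoxia replicates. Among genes with an EU peak, 46.1% likewise had none in those 4 libraries. The peaks were narrow, 101 to 151 bases, and lay between 28.1% and 52.2% of the way along the 65781-base gene span. The one at chromosome 8, 94519136 to 94519285, was called with the same first and last base in the hypoxia condition list, where it ranked 7344 of 7669 by the deposited p (0.0065).

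ZC3H13, which helps to keep the complex in the nucleus, had the most peaks. It had 9 in the EU library, 0 and 6 in hypoxia replicates 1 and 2, and 0 and 2 in normoxia replicates 1 and 2. Of 2389 genes with an EU peak, 17 (0.712%) had 9 or more. Its best EU peaks had a deposited p of 1.1e-07 and ranked from 177 of 5044, inside the first 3.51% of the list, whereas its best peak in hypoxia replicate 2 ranked 5075 of 6621 and that in normoxia replicate 2 ranked 1310 of 1563.

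The ZC3H13 peaks fell into repeated positions in the 3′ part of the gene. Of its 17 peaks in the 5 libraries, 11 were split over 2 or 3 exon blocks. One stretch, at chromosome 13, 45967719 to 45967918 (200 bases), was covered in the EU library, hypoxia replicate 2 and normoxia replicate 2. A second position lay on both sides of a gap between exon blocks. There, 45985601 to 45985761 and 45988787 to 45988875 were covered in the same 3 libraries, the blocks belonging to 1 peak in each. All 450 bases covered in normoxia replicate 2 were also covered in the EU library and in hypoxia replicate 2, which covered 1703 and 1502 bases. A 2-block peak at 45975837 to 45979911 was identical in the EU library and hypoxia replicate 2, the one case among the factor genes in which 2 libraries called the same first and last base. A 3-block peak at 46011486 to 46042178, toward the 5′ end, was found in hypoxia replicate 2 and in the hypoxia condition list.

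**Figure D3:**
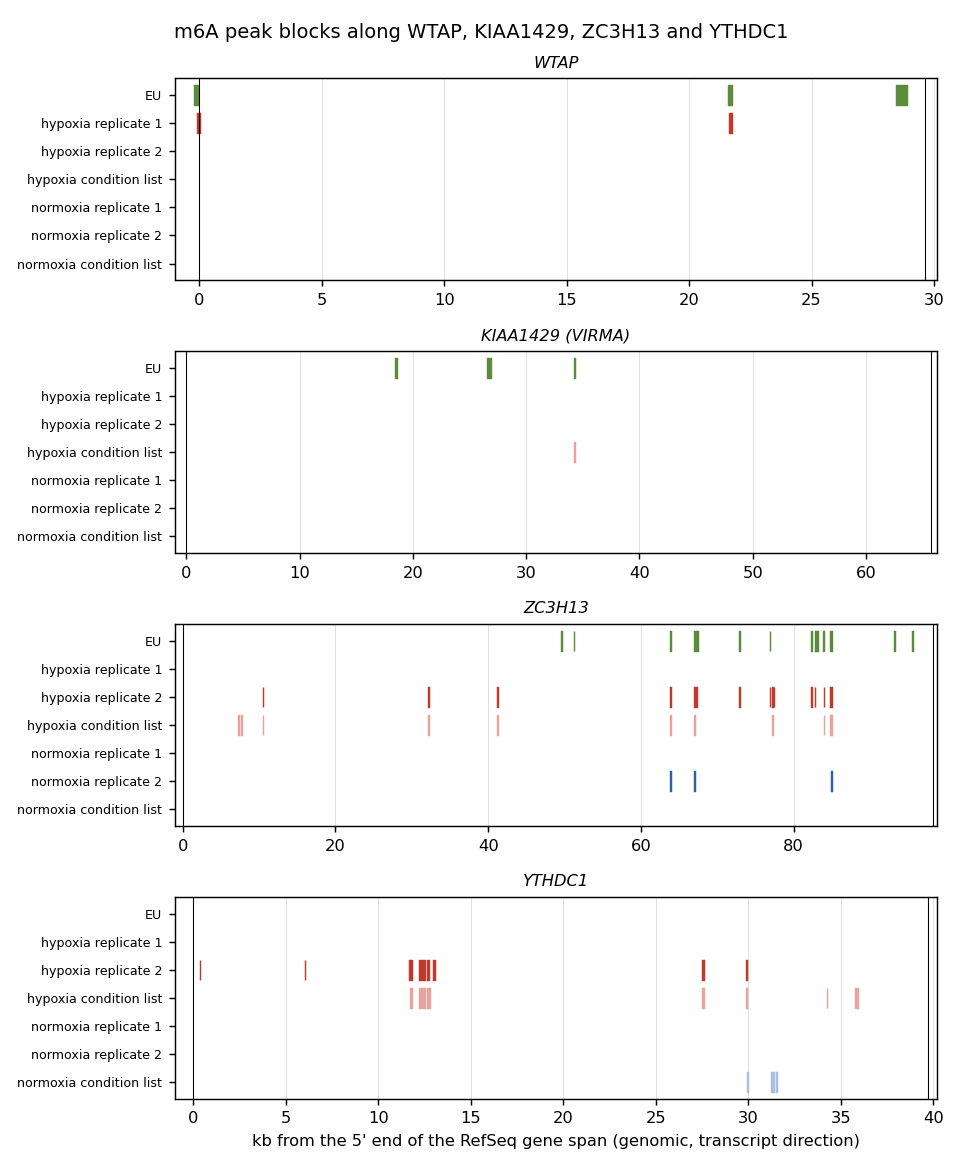
Exon blocks of the peaks of WTAP, KIAA1429, ZC3H13 and YTHDC1, drawn to scale with a thin outline, in each list (rows), by distance in kb from the 5′ end of the RefSeq gene span in the direction of the transcript (horizontal axis; vertical lines mark the ends of the span). ZC3H13 positions in the 3′ part of the gene recur between the EU library and the 2 replicates numbered 2, KIAA1429 has blocks in the EU library and the hypoxia condition list, and YTHDC1 has none in the EU library.

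RBM15 and RBM15B, paralogous RNA-binding proteins that bring the complex to particular transcripts, both had peaks in the EU library but in different hypoxia replicates. RBM15 had 7 peaks in the EU library, 3 and 0 in hypoxia replicates 1 and 2, and none in normoxia replicates 1 and 2. RBM15B had 2 in the EU library, 0 and 4 in hypoxia replicates 1 and 2, and 0 and 6 in normoxia replicates 1 and 2. Thus RBM15 was found in the hypoxia replicate that lacked RBM15B, and RBM15B in the one that lacked RBM15. A peak in 1 hypoxia replicate alone was common among all genes: 1258 and 2151 had a peak in replicates 1 and 2, and 682 in both. The condition lists held both, with 3 RBM15 and 5 RBM15B peaks for hypoxia and 1 and 4 for normoxia.

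In RBM15 all 10 library peaks lay in 1 stretch of 2783 bases, chromosome 1, 110339499 to 110342281, in the 5′ part of the 7301-base span. Each of the 3 peaks of hypoxia replicate 1 was overlapped by an EU peak, and 698 of their 847 bases (82.4%) were covered in the EU library. The peaks that start at 110341933 began at the same base in both libraries and ended at 110342281 in the EU library and 110342231 in hypoxia replicate 1. The single RBM15 peak of the normoxia condition list, 110340890 to 110341139, lay wholly inside an EU peak and overlapped a peak of hypoxia replicate 1 by 200 bases, although neither normoxia replicate had a peak in the gene.

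In RBM15B the hypoxia and normoxia peaks alternated along the transcript. Those of hypoxia replicate 2 lay at chromosome 3, 51392266 to 51392366, 51393065 to 51393165, 51394064 to 51394214 and 51395312 to 51395462. Those of normoxia replicate 2 lay at 51391867 to 51391967, 51392366 to 51392516, 51392616 to 51393065, 51393864 to 51394064, 51394713 to 51394863 and 51394962 to 51395112. Of the 4 hypoxia peaks, 3 met a normoxia peak at exactly 1 base, and the fourth lay 3′ of the last normoxia peak. With edges at steps of about 50 bases, such a contact is an edge that neighbouring peaks share, not a measured overlap. The 2 libraries thus covered 504 and 1205 bases of the gene and shared 3. The condition lists covered 555 bases in hypoxia and 703 in normoxia and shared 1.

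So small an overlap was not particular to RBM15B. Of the 338 genes with a peak in both hypoxia replicate 2 and normoxia replicate 2, 59 (17.5%) shared 3 bases or fewer, a limit chosen after the RBM15B value was seen, and the median gene shared 29% of its hypoxia bases and 50.1% of its normoxia bases. The EU library had 1 peak of 1349 bases, 51392067 to 51393415, over the 5′ part of both sets. By exon bases it was the widest peak of any factor gene in the 7 lists. In normoxia replicate 2, 14 of 897 genes (1.56%) had as many peaks as RBM15B or more, and in hypoxia replicate 2, 660 of 2151 genes (30.7%) did. Hypoxia replicate 1 and normoxia replicate 1 had no RBM15B peak, so the alternation rests on 1 hypoxia and 1 normoxia library. These libraries also differed in T and NK cell markers, with peaks in 16 and 0 of 19.

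**Figure D4:**
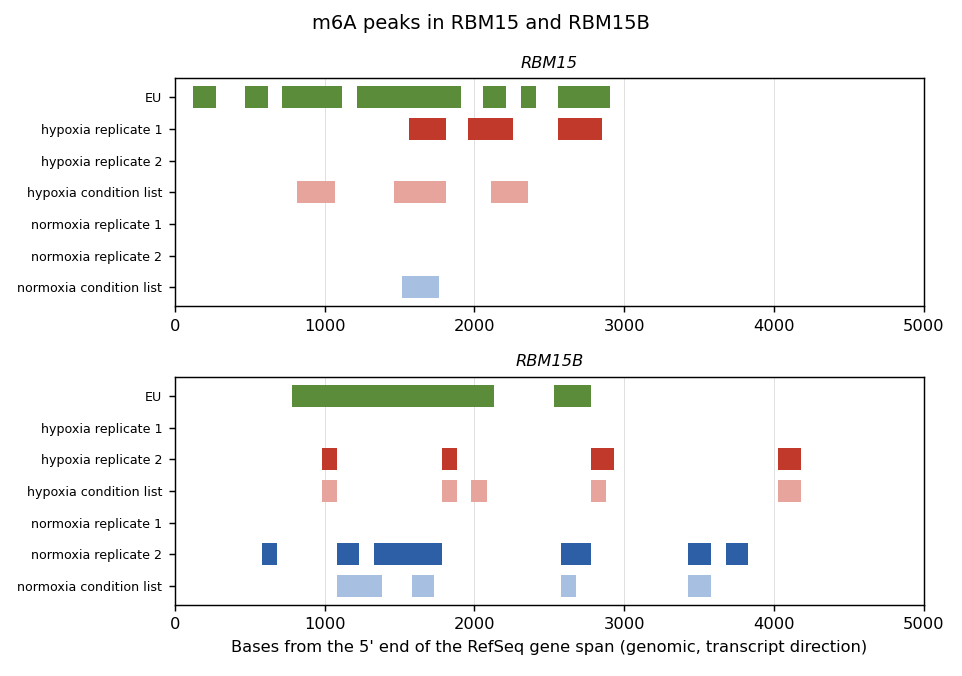
Peaks of RBM15 and RBM15B in each list (rows) by distance in bases from the 5′ end of the RefSeq gene span (horizontal axis). RBM15 peaks are in the EU library, hypoxia replicate 1 and the condition lists, and the RBM15B peaks of hypoxia replicate 2 (504 bases) and normoxia replicate 2 (1205 bases) touch at 3 bases.

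ALKBH5, the demethylase of the set, was named by no peak of the 7 lists, and no peak of these lists, on either strand, touched its RefSeq span on chromosome 17, 18183828 to 18209954. A gene with no called peak is not thereby unmethylated or silent.

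Among the readers, YTHDF2 was the one with single bases covered in 4 libraries. YTHDF2, which brings methylated mRNA to decay, had 2 peaks in the EU library, 0 and 2 in hypoxia replicates 1 and 2, and 1 and 2 in normoxia replicates 1 and 2. A stretch of 248 bases at chromosome 1, 28743448 to 28743695, was covered in 4 libraries: EU, hypoxia replicate 2 and both normoxia replicates. In the last 3 the peak began at the same base, 28743448, and ended at 28743794 in hypoxia replicate 2, 28743695 in normoxia replicate 1 and 28743943 in normoxia replicate 2. With edges at steps of about 50 bases, equal first bases show the same step and no finer match. No other factor gene had a base covered in 4 libraries, and 2.96% of the 4327 genes did. It was also the single factor gene peak among the 212 of normoxia replicate 1, where it ranked 195.

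The YTHDF2 bases of hypoxia replicate 2 all lay inside those of other libraries. All 447 were among the 793 of normoxia replicate 2, of which they made up 56.4%, and among the 1338 of the EU library. Hypoxia replicate 1 had no YTHDF2 peak, so this containment rests on 1 hypoxia library. A second, upstream position, 28742756 to 28742855, was covered in the EU library, hypoxia replicate 2 and normoxia replicate 2. The wider EU peak had 2 blocks, one at 28743003 to 28743986 and one of 155 bases at 28768929 to 28769083, near the 3′ end of the span. The hypoxia condition list had no YTHDF2 peak despite the 2 of hypoxia replicate 2.

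YTHDF1, a reader linked to translation, had 3 peaks in the EU library, 1 and 4 in hypoxia replicates 1 and 2, and 0 and 3 in normoxia replicates 1 and 2. Of these 11 peaks, 9 fell in a stretch of 1331 bases on chromosome 20, 63202409 to 63203739. The 2 hypoxia replicates shared a peak that began at 63203542 and ran to 63203690 in replicate 1 and to 63203739 in replicate 2, so that all 149 bases of replicate 1 were covered in both. Linked through shared bases, the YTHDF1 peaks between 63203148 and 63203739 formed 1 site with peaks of 4 libraries, although no base was covered in all 4. The normoxia replicate 2 peaks lay toward the 3′ side of the stretch, at 63202459 to 63202754, 63202951 to 63203099 and 63203296 to 63203394. They shared 99 of 544 bases with hypoxia replicate 2 and none with hypoxia replicate 1, whose peak stood 147 bases from the nearest. Of 234 genes with a peak in both hypoxia replicate 1 and normoxia replicate 2, 64 (27.4%) likewise shared no base. Between the replicates numbered 2, YTHDF1 shared 14.3% of its hypoxia bases and 18.2% of its normoxia bases, against 29% and 50.1% for the median gene. The EU library covered 495 of the 544 normoxia bases and 151 of the 693 bases of hypoxia replicate 2. A further pair of peaks, 99 bases each, at 63195577 to 63195675 and 63195971 to 63196069, lay 148 and 542 bases from the 3′ end of the span, in hypoxia replicate 2 and in the hypoxia condition list.

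YTHDF3, the third cytoplasmic reader, had 4 peaks in the EU library, none in hypoxia replicates 1 and 2, and 0 and 3 in normoxia replicates 1 and 2. All 3 normoxia peaks lay on chromosome 8 between 63186536 and 63187430, and 351 of their 401 bases (87.5%) were covered in the EU library. Of the 4 EU peaks, 2 overlapped these normoxia peaks. The others were at 63187579 to 63188767, in 2 blocks, and at 63209755 to 63209904, near the 3′ end of the span. Neither condition list had a peak in YTHDF3.

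In each of the 3 YTHDF genes, 1 stretch held most peaks: 9 of 11 in YTHDF1, all 7 in YTHDF2 (the second block of 1 of them apart) and 6 of 7 in YTHDF3. Its length was 1331 bases in YTHDF1 and 1330 in YTHDF2, and 2531 in YTHDF3, where the count includes a second block that 1 EU peak has beyond a gap. The stretches lay at 59.9% to 66.3%, 18.2% to 22.2% and 40.0% to 45.7% of the gene spans.

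**Figure D5:**
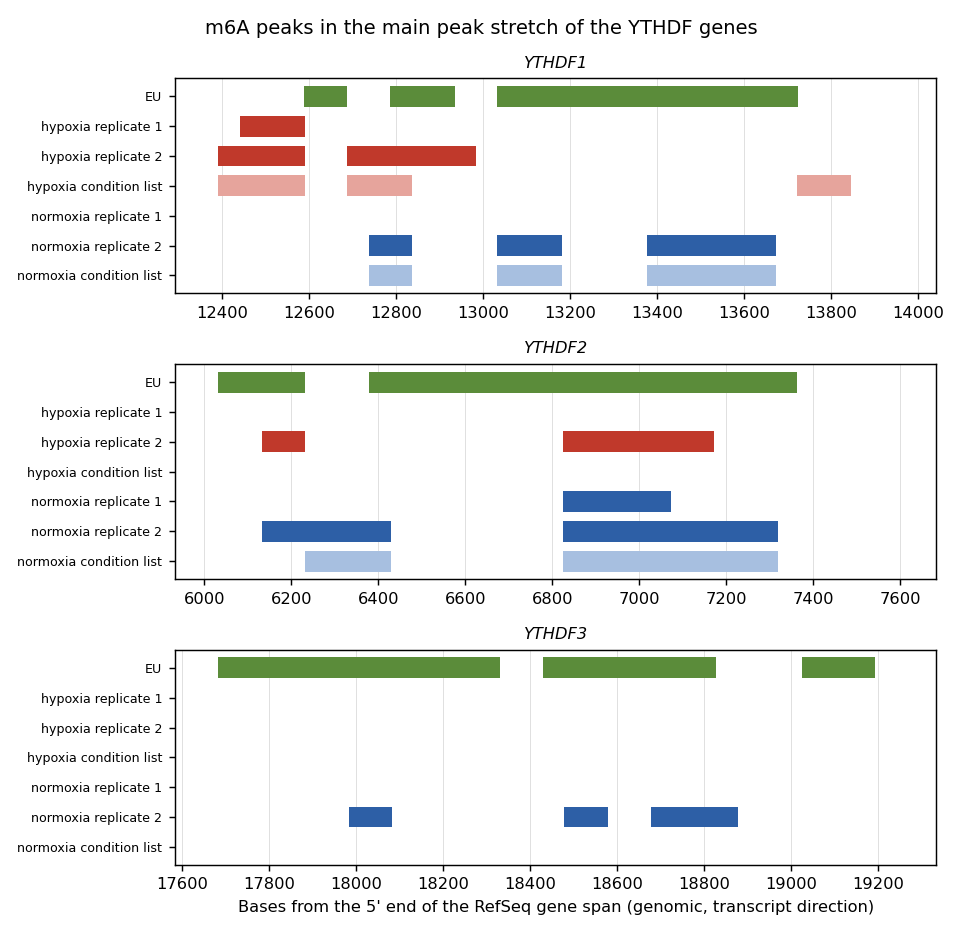
Peaks of YTHDF1, YTHDF2 and YTHDF3 in the stretch of each gene that holds most of them, in each list (rows), by distance in bases from the 5′ end of the RefSeq gene span (horizontal axis). YTHDF2 peaks of hypoxia replicate 2 and both normoxia replicates begin together, YTHDF1 peaks of normoxia replicate 2 lie mostly 3′ of those of the hypoxia replicates, and YTHDF3 has peaks in the EU library and normoxia replicate 2. The YTHDF3 panel ends before the second block of an EU peak, which is not drawn.

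YTHDC1, the nuclear reader, which acts in splicing and export, was the 1 factor gene found in a hypoxia or normoxia library and not in the EU library. Among the 3226 genes with a peak in those 4 libraries, 60.1% likewise had none in the EU library. YTHDC1 had 0 peaks in the EU library, 0 and 3 in hypoxia replicates 1 and 2, and none in normoxia replicates 1 and 2. One peak had 5 blocks between chromosome 4, 68337358 and 68349740, with 599 exon bases. Another, 68320165 to 68322601, had 2 blocks and was called at the same bases in the hypoxia condition list. By the deposited p it ranked 6602 of 6621 in hypoxia replicate 2 (0.011) and 6592 of 7669 in that condition list. The normoxia condition list had 1 peak of 4 blocks, 68318526 to 68320165, which met that hypoxia peak at 1 base, an edge of both.

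Positions that recurred between libraries were counted over all factor genes. The 76 peaks of the 5 libraries formed 41 sites, a site being a group of peaks of 1 gene linked by at least 1 shared base. Of these, 16 held peaks of at least 2 libraries, against 22.3% of 11680 sites of all genes. There were 4 such sites in the better 50% of every list by p, and 10 when narrow peaks, under the list's median width, were left out. Of the 25 sites found in a single library, 14 were in the EU library, 8 in hypoxia replicate 2, 3 in normoxia replicate 2 and none in hypoxia replicate 1 or normoxia replicate 1. Counted by gene, 7 of the 9 genes had at least 1 base covered in 2 libraries, against 34.9% of the 4327 genes, and 4 had one covered in 3, against 11.9%.

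Widths of factor gene peaks were set beside those of all peaks. The median of exon bases was 151 for the 34 factor gene peaks of the EU library, against 199 for all EU peaks, 200 and 151 in hypoxia replicates 1 and 2, against 150 and 151, and 175.5 in normoxia replicate 2, against 150. The single peak of normoxia replicate 1 had 248, against a median of 150. In the condition lists the median was 150.5 for hypoxia, against 151, and 198 for normoxia, against 150. Factor gene peaks were thus narrower by median in the EU library and about equal in hypoxia replicate 2 and the hypoxia condition list. The wider medians came from few peaks: 6 in hypoxia replicate 1, 1 and 16 in normoxia replicates 1 and 2, and 11 in the normoxia condition list. Factor gene peaks ran from 99 to 1349 exon bases. Most widths stood within 2 bases of a multiple of 50, 30 of 34 factor gene peaks in the EU library and 87.9% of all its peaks. Peak edges are thus resolved to steps of about 50 bases. Many peaks of 1 gene carried the same deposited p (24 of 34 factor gene peaks in the EU library, 52.3% of all its peaks), so the p often does not order the peaks within a gene.

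The condition lists and the replicates overlapped in part. Of 22 factor gene peaks in the hypoxia condition list, 16 were overlapped by a peak of a hypoxia replicate, against 67.0% of all its 7669 peaks. Of 11 in the normoxia condition list, 9 were overlapped by a normoxia replicate, against 50.2% of all its 2285 peaks. In the reverse direction, the hypoxia condition list overlapped 17 of 25 replicate peaks, against 68.1% of all hypoxia replicate peaks. The normoxia condition list overlapped 10 of 17, against 66.5%. By the condition lists alone, KIAA1429 and ZC3H13 were named for hypoxia without normoxia, and YTHDF2 for normoxia without hypoxia. Of all 2637 genes of the hypoxia condition list, 78.8% were likewise absent from the normoxia one, and of all 1231 genes of the normoxia condition list, 54.5% were absent from the hypoxia one. Yet ZC3H13 had 2 peaks in normoxia replicate 2 and YTHDF2 had 2 in hypoxia replicate 2.

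Other genes of the pathway were taken from a list by role, also chosen with earlier results of these data known. Of 31 further genes, 13 had a peak in any list: 7 in the EU library, 3 and 8 in hypoxia replicates 1 and 2, and 0 and 3 in normoxia replicates 1 and 2. The shares of all protein-coding genes beside these counts are 22.0% in any list, 10.6% in the EU library, 5.66% and 9.65% in the hypoxia replicates, and 0.609% and 4.03% in the normoxia replicates. By role the 13 were 4 of 9 writers and writer partners, 0 of 1 erasers, 5 of 12 readers, 2 of 3 genes of methyl donor supply and 2 of 6 partners of readers. METTL3, METTL14 and FTO, the other known m6A demethylase, had none. EIF3A, a translation initiation subunit, had 4 peaks in the EU library, 6 and 8 in the hypoxia replicates, and 0 and 4 in the normoxia replicates. METTL16, a separate methyltransferase, had 2 in the EU library, 0 and 2 in the hypoxia replicates, and 0 and 3 in the normoxia replicates. HNRNPA2B1, a nuclear RNA-binding protein proposed as a reader, had 4 in the EU library, 2 and 4 in the hypoxia replicates and none in the normoxia replicates.

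The others, like METTL16, had peaks in at most 1 replicate of each condition. PRRC2A had 4 peaks in the EU library, 4 and 0 in the hypoxia replicates and 0 and 2 in the normoxia replicates. UPF1, a helicase of nonsense-mediated decay, had 3 in hypoxia replicate 2, 1 in the hypoxia condition list and 4 in the normoxia condition list. RBMX had 3 in the EU library and 3 in hypoxia replicate 2. MAT2A, which makes the methyl donor S-adenosylmethionine, had 4 in hypoxia replicate 2 and TRMT112, a methyltransferase partner, 3 there, with none in the EU library or in normoxia. PCIF1, MAT2B, SRSF10, LRPPRC and ZCCHC4 were in 1 or 2 lists each.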

How the data were processed

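Each list is a headerless BED table of 12 columns, with a gene name, strand and exon blocks per peak. The submitters' processing notes list STAR, a read aligner, and hg38. The sources used here do not say what called the peaks, at which threshold, whether the 5 inputs were used, or how the condition lists were made. Column 5 was taken as the authors' p-value (0 to 0.013, ascending), although the files do not name it, and ranked peaks within a list. Read depth is unknown. Rows were taken where column 4 equals a member's name. Starts were moved by 1 base. Widths are exon bases. Sites need the same gene, the same strand and at least 1 shared base. Overlaps between pairs of lists were matched by gene name and base position, without a check of strand. RefSeq genes of GRCh38.p14 gave background shares and gene spans (4405 of 5000 names matched a protein-coding gene). Peaks per gene were compared between conditions with an exact permutation test over libraries, Benjamini-Hochberg adjusted over all genes. Such a p reflects how much these libraries vary, possibly for technical reasons. Scripts ran in Python 3.11.15 and were tested on simulated data. Alternatives used stricter, wider or shortened lists, condition lists, RefSeq spans, 50% overlaps or joined neighbours, or left out a replicate. The members, pathway genes and markers were chosen with earlier results of these data known. The genes named were all members, pathway genes with a peak, and METTL3, METTL14 and FTO, with values for 8 pathway genes ranked by the number of lists and then by the smallest p. Pseudogenes exist for WTAP, YTHDF1, YTHDF2 and YTHDF3, and reads may have been split among copies. No genome sequence was used here.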

Additional observations from a re-analysis of the deposited data

How the results depend on the processing

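Of 57 alternatives for 6 counts, 42 stayed within 1.5 times the reported value or within the replicate SD. The SD, 2.24, was the limit for the difference in genes, so that values of 0 and 3 passed beside 1. Some of the 42 could not change, among them the EU count whenever a hypoxia or normoxia replicate was left out. The difference in factor genes with a peak, 1, turned to -0.5 with libraries shortened to 212 peaks, and ran from -1 to 3 when single replicates were left out (-1 without normoxia replicate 1). Genes with a peak in the 5 libraries, 9, numbered 2 with 212 peaks, when the EU library had 1 in place of 8, and 8 to 9 without single replicates. No gene was hypoxia-only. YTHDF1 made 1 in the better 50% of every list by p, the condition lists gave 2, and leaving out single replicates 0 to 2. No gene was normoxia-only, with 1 by the condition lists and 0 to 1 without single replicates. These settings loosen both definitions. Where a condition had 1 list, a peak or its absence in that list alone was enough. Sites in at least 2 libraries, 16, numbered 4 by the better 50%, 10 without narrow peaks, 0 with 212 peaks, 13 with peaks within 100 bases joined (chosen after seeing the data) and 11 to 16 without single replicates. Peaks per gene, hypoxia minus normoxia, reversed in 6 of 64 cases, each without 1 replicate. A fall to 0 was not counted as a reversal, and taking the replicate number as a block could not change a difference. In the better 50% only WTAP (1) and YTHDF1 (2.5) kept a difference, and with 212 peaks only YTHDF2 (-0.5). Without single replicates, RBM15B, -1, ran from -4 to 2 and YTHDF2, -0.5, from -1.5 to 0.5. ZC3H13, 2, ran from -1 to 5 and YTHDF1, 1, from -0.5 to 2.5. The cause was not tested.

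Taking the replicate number as a block left the difference in genes at 1 by construction. The paired exact permutation p per gene was 0.5 for YTHDF1 and 1 for the other 7 genes, where 2 pairs allow no p below 0.5. Deviations of same-numbered libraries correlated at -0.0978 over 3226 genes, so the numbers were not taken to pair them. Unknown depth and lists of 212 to 6621 peaks limit every count.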
